A study of Mus musculus with 6 samples.

Results

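Odf3l1, Spo11 and Rad9b, genes known mainly for work in germ cells, were followed in RAW264.7, a mouse macrophage-like cell line. They were taken as every array target whose accession matched one of these symbols through the transcripts, symbols or synonyms of a mouse RefSeq gene table, which gave 4 of 44170 targets for 3 of the 1229 genes that could be named. Odf3l1 was read by target BC049697, Rad9b by BC021784, and Spo11 by NM_001083959 and NM_001083960, which stand for different transcripts of the gene. Odf3l1 and Rad9b were chosen by their measured difference in log2 intensity between the groups, and Spo11 was chosen by its measured level, so the difference of the first pair and all levels are given as a description with no test.

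The study compared 3 arrays from cells transfected with a pRNAi-U6H1 vector carrying an interfering RNA against Tim-3 (the knockdown group) with 3 arrays from cells given the vector with a control interfering RNA (the control group). Tim-3, encoded by Havcr2, is an immune receptor. Both groups share the RAW264.7 background and the culture medium, and per the labels every array had a culture of its own. The protocol describes clones with the Tim-3 interfering RNA that were kept under G418, an antibiotic that kills cells without the vector's resistance gene, and says neither whether the control cells were kept under the drug too nor how many clones stand behind a group. Differences between the groups can therefore not be told apart from drug selection or the choice of clones. Every p-value here rests on how far these cultures varied. Total RNA was labelled with Cy3 and read on 1-colour NimbleGen arrays. No value of Havcr2 was used here, which leaves the knockdown itself unchecked.

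Median intensities per array lay between 201.5 and 218.3, and a row of 5000 random-sequence probes, used here as the background, read 23.1 to 24.5. The precision is limited by the number of arrays, 3 in each group. Control replicate 3 stood apart: Pearson's r of log2 intensity over all targets was 0.965 to 0.972 between it and the other arrays, against 0.982 to 0.990 among those. The measured hepatocyte genes, 5 of 24 listed and none of them among the germ-cell genes, summed to an intensity of 762.7 on control replicate 3 and to 10904 to 14146 on the other arrays. On the other arrays 0 of these 5 genes lay within 2-fold of the random-sequence row, and on control replicate 3, 2 did. Hepatocyte genes were thus read above the background in a macrophage-like line, least so on control replicate 3. Which arrays are typical of the line, and the source of these readings, was not tested. Of 24 listed macrophage genes only Ptprc (CD45) was measured, and its intensity lay between 124.7 and 195.0, above the background on all 6 arrays. The mean level of Ptprc stood at percentile 46.1 of all targets. None of the defining spermatogenic markers on the list, such as Ddx4, Dazl, Sycp3 and Prm1, was measured under a symbol.

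Spo11 is a topoisomerase-like protein that cuts both DNA strands at the start of meiotic recombination, in spermatocytes and oocytes. Rad9b is a paralogue of Rad9a, a subunit of the ring-shaped 9-1-1 clamp (RAD9, HUS1 and RAD1) that is loaded at damaged DNA and helps to switch on the ATR checkpoint kinase, and it is known mainly from testis. Odf3l1 belongs to the family of Odf3, a protein of the outer dense fibres that stiffen the sperm tail.

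Odf3l1, the sperm-tail family member, was lower on every knockdown array than on every control array. Its intensity was 4061, 4178 and 3954 on control replicates 1 to 3, and 1159.6, 1051 and 1526 on knockdown replicates 1 to 3. On the log2 scale these levels were 11.99, 12.03 and 11.95 in control cells and 10.18, 10.04 and 10.58 in knockdown cells. The control arrays lay close together, the knockdown arrays were more spread, and the lowest control was 1.37 above the highest knockdown array. The group means were 11.99 ± 0.04 (SD, n = 3) in control and 10.26 ± 0.28 (SD, n = 3) in knockdown cells, a difference of -1.72 or a 3.3-fold lower geometric mean. Control replicate 3 lay with the other controls here, and the difference without it was -1.74. The gene stayed far from the background: its log2 ratio to the random-sequence row of the same array was 7.33 to 7.50 on control and 5.42 to 5.96 on knockdown arrays.

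Rad9b, the checkpoint clamp paralogue, was also lower on every knockdown array. Its intensity was 161, 192 and 179 on the control arrays and 79.5, 77.0 and 101 on the knockdown arrays. The log2 levels were 7.33, 7.58 and 7.48 in control cells and 6.31, 6.27 and 6.66 in knockdown cells. No knockdown array reached a control array, and the gap between the nearest pair was 0.67. Group means were 7.47 ± 0.13 (SD, n = 3) and 6.41 ± 0.21 (SD, n = 3), a difference of -1.06 or a 2.08-fold lower geometric mean. Its log2 ratio to the random-sequence row was 2.79, 3.05 and 2.87 on the control arrays and 1.70, 1.65 and 2.04 on the knockdown arrays. Without control replicate 3 the difference was -1.05.

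Among all targets, 68 of 44170 had a more negative difference than Odf3l1 and 439 a more negative one than Rad9b. Both were at least 2-fold lower with no overlap between the groups, as were 456 of all targets (1.03%), while 13.0% of all targets were lower with no overlap. Since both were picked for this difference, nothing is read from that count. In both genes knockdown replicate 3 was the highest and replicate 2 the lowest of the knockdown arrays. In RNA from whole cultures, fewer cells that make a transcript and less of it per cell cannot be told apart.

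**Figure D1:**
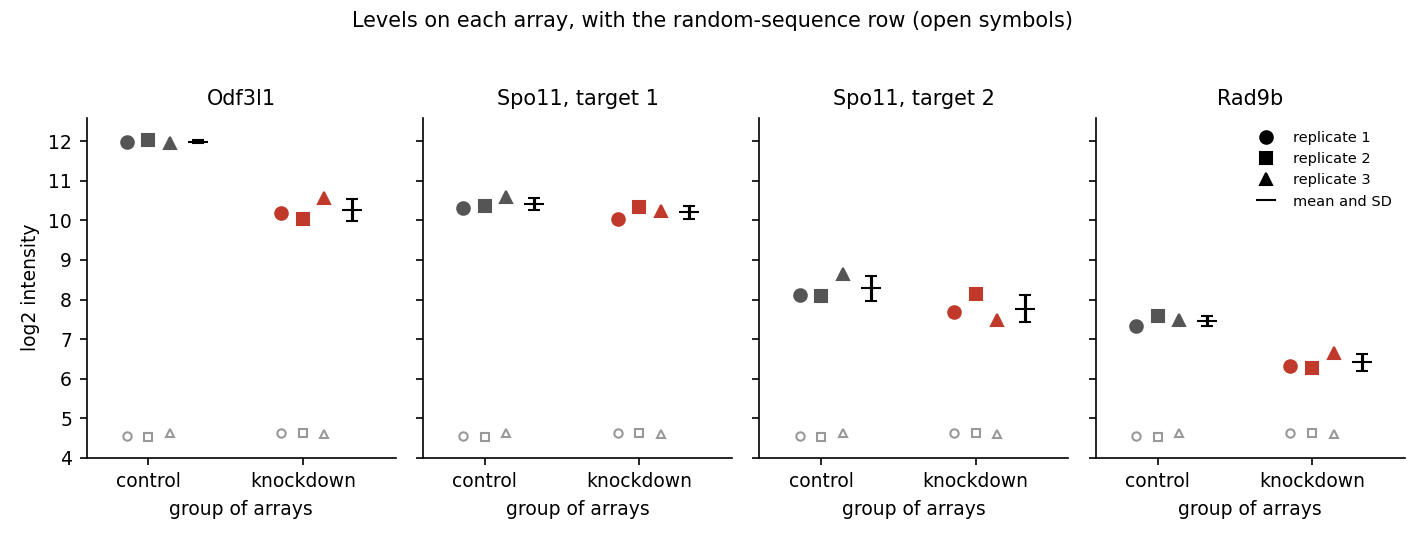
Log2 intensity of the 4 targets (target 1 of Spo11 is NM_001083959 and target 2 is NM_001083960) on each of the 6 arrays, with replicates by symbol shape, group means with SD as black bars (n = 3 per group) and the random-sequence row of the same array as open grey symbols. The groups are separate for Odf3l1 and Rad9b and overlap for both Spo11 targets.

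Spo11, the protein of meiotic break formation, was read above the background on every array of both groups. Such a reading was common, since only 26.0% of all targets had a mean level within 2-fold of the background. The mean levels of its 2 targets stood at percentiles 75.1 and 53.3 of all targets and lay 2.28 apart on the log2 scale. The probe sequences were not at hand, and whether the probes read Spo11 alone was not tested. The first target, NM_001083959, had intensities of 1261, 1315 and 1545 on the control arrays and 1046, 1296 and 1203 on the knockdown arrays. Its log2 ratio to the random-sequence row was 5.41 to 5.98 over the 6 arrays. The groups overlapped, since knockdown replicate 2 (log2 10.34) lay above control replicate 1 (10.30). The second target, NM_001083960, had intensities of 275, 273 and 403 on the control arrays and 205, 283 and 179 on the knockdown arrays, with log2 ratios to the random-sequence row of 2.87 to 4.04. The groups overlapped here too, since knockdown replicate 2 was above 2 of the control arrays. On both targets control replicate 3 was the highest of all arrays.

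Spo11 was picked for its level and not for a difference between the groups, which was therefore tested with limma over all targets, where 536 of 44170 (1.21%) passed a Benjamini-Hochberg adjusted p under 0.05. The first target had means of 10.42 ± 0.15 (SD, n = 3) in control and 10.20 ± 0.16 (SD, n = 3) in knockdown cells, a difference of -0.22 (SE 0.14, 95% interval -0.56 to 0.13, limma adjusted p = 0.48). The second had 8.28 ± 0.32 and 7.77 ± 0.34 (SD, n = 3), a difference of -0.51 (SE 0.24, 95% interval -1.09 to 0.06, limma adjusted p = 0.34). Neither target passed, which does not show that the levels were alike, and the interval of the second reached below -1, which is a 2-fold lower level. Without control replicate 3, the array with the highest Spo11 values and the low hepatocyte genes, the differences were -0.13 and -0.33. Without knockdown replicate 1, the lowest array of the first target, they were -0.13 and -0.47. The part of the other features of control replicate 3 in the Spo11 values was not tested.

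For 2 of the 3 genes, Odf3l1 and Rad9b, the sequence just before a gene start was at hand from RefSeq (GRCm38.p6), and it is shown because the pair was lower in the same arrays. The 250 bases before each listed start, all on the minus strand and written 5′ to 3′, follow, with 2 listed starts for Odf3l1; capitals mark matches to the GC box GGGCGG on either strand.
Odf3l1, first start, chr9:56853815-56854064: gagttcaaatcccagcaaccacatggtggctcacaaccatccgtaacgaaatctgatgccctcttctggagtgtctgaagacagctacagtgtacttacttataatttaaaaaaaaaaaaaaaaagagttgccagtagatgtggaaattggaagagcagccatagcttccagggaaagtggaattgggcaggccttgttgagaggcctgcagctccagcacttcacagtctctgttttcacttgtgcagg
Odf3l1, second start, chr9:56851964-56852213: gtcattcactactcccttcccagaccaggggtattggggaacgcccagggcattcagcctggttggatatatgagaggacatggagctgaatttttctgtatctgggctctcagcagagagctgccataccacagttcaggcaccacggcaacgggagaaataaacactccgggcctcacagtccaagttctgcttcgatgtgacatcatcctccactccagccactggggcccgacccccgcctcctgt
Rad9b, chr5:122354206-122354455: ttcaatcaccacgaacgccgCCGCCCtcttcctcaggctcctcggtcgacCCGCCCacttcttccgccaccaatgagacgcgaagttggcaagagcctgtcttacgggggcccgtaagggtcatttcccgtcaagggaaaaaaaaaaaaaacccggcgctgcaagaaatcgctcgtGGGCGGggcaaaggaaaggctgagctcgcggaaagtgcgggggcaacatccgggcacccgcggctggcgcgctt

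The stretches differ in composition. That of Rad9b holds 26 CpG dinucleotides with an observed to expected ratio of 1.10 and a GC content of 61.6%, against a median ratio of 0.37 and a median GC content of 52.4% over 32851 such stretches in the table. Those of Odf3l1 hold 2 and 7 CpG dinucleotides, with ratios of 0.16 and 0.36 and GC contents of 45.2% and 56.0%. Rad9b has 3 GC boxes, 1 as written and 2 on the other strand, a motif found in 32.7% of all stretches, and neither stretch of Odf3l1 has one. The other motifs searched on both strands were not in any of the 3 windows: the E-box CACGTG (in 6.02% of all stretches), the cAMP response element TGACGTCA (1.55%), the E2F motifs TTCCCGCC (1.86%) and TTTCCCGC (0.895%), which can overlap each other, the TATA box TATAAA (12.4%) and the MYB-type motif AACNGTT (3.8%). These are matches of letters only.

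The partners of the 3 genes were largely out of view. Of 19 listed genes of the 9-1-1 clamp and the ATR checkpoint, Rad9b alone was measured under a symbol, and of 55 listed genes of the outer dense fibres and sperm flagellum, Odf3l1 alone. Of 48 listed genes of meiotic break formation and synapsis, Spo11, Ythdc2 and Ccnb1ip1 were measured. Ythdc2, an RNA helicase needed for entry into meiosis and also made in other cells, had log2 levels of 10.25, 9.88 and 9.98 in control and 9.92, 10.04 and 9.83 in knockdown cells. Its groups overlapped, with a difference of -0.11 (SE 0.14, limma adjusted p = 0.73). Ccnb1ip1, a ubiquitin ligase of meiotic crossing over, differed by -0.66 (limma adjusted p = 0.15), but its mean level lay below the random-sequence row, with a log2 ratio of -0.30.

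Of 26 listed genes of homologous recombination repair, Palb2, the partner of Brca2, was the one measured. Its log2 levels were 9.72, 10.09 and 9.96 in control and 9.41, 9.65 and 9.67 in knockdown cells. The groups lay side by side without overlap, as they did for 25.1% of all targets, and the difference of -0.35 (SE 0.15, 95% interval -0.70 to 0.01) did not pass (limma adjusted p = 0.31). Of 33 listed spermatid genes, Prm3, Crem and Tcp11 were measured. Crem, a transcription factor with a spermatid-specific activator form and other forms elsewhere, had 4 targets with differences of -0.10, 0.20, 0.43 and 0.35, of which none passed (limma adjusted p of 0.69, 0.42, 0.35 and 0.42). Tcp11, a sperm motility gene, differed by -0.10 and Prm3, a protamine family member, by 0.03, with limma adjusted p of 0.89 and 0.97. None of the 39 spermatogonial, 19 Sertoli and Leydig or 18 oocyte genes was measured under a symbol.

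Since those lists were so thinly read, 42 germline genes were taken by name from the symbols the arrays offered, 37 of them in none of the lists above and 5 (Ythdc2, Ccnb1ip1, Prm3, Crem and Tcp11) described there already: 4 of spermatocytes, 15 of spermatids and sperm, 17 of X-linked germline families such as Rhox2, Fthl17 and Xlr, and 6 of oocytes and early embryos. Most were near the background. Of the 42, 25 (59.5%) had a mean level within 2-fold of the random-sequence row, as had 26.0% of all targets, and 10 (23.8%) reached an intensity of 100 on at least 3 arrays, as did 62.3% of all targets. The 4 targets of Odf3l1, Spo11 and Rad9b were all above that 2-fold limit, a level that had a part in their choice.

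The differences of these 42 genes had a median of 0.05, beside 0.01 over all targets. By limma, 0 of the 42 passed the adjusted threshold, against 1.21% of all targets. At an unadjusted limma p under 0.05, 4 were higher and 4 lower, beside 3592 higher and 3902 lower of all 44170 targets. The groups did not overlap for 4 genes that were higher (Ctag2l1, Sly, Ssty2 and Speer1) and 4 that were lower (Ccnb1ip1, H2al1a, H2al1k and Tcstv3), beside 12.1% of all targets that were higher and 13.0% that were lower in this way. All of these but Ctag2l1 were under an intensity of 100 on all 6 arrays. Rhox2, Fthl17, H2al1, Ssty and several others are multicopy families whose probes can read related copies, so their values cannot be given to a single gene.

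Ctag2l1, of the family of cancer-testis antigens that includes NY-ESO-1, had the largest difference of the 42 in the direction opposite to that of Odf3l1 and Rad9b. Its name is given after its values were seen. Its intensity was 33.2, 63.4 and 17.5 on the control arrays and 236.1, 242.4 and 212.8 on the knockdown arrays. The control arrays were at 17.5 to 63.4 beside a random-sequence row of 23.1 to 24.5, while the knockdown arrays lay far above it. Its log2 means were 5.06 ± 0.93 (SD, n = 3) and 7.85 ± 0.10 (SD, n = 3), a difference of 2.79 (SE 0.44) with a limma adjusted p of 0.051, just outside the threshold. The size of the difference depends on how values near the background are treated: it was 1.70 with log2(value + 50) and 4.81 with the random-sequence row subtracted. It passed under 5 of 14 other settings that do not select on intensity, with limma adjusted p between 8.6e-04 and 0.19. In the series table and with an intensity of 100 or more on 3 arrays, which hold the same targets, it entered only through its 3 knockdown arrays, and those fits are not counted. Without control replicate 3 the difference was 2.33 (limma adjusted p = 0.043). Without any other single array it was 2.75 to 3.26 and did not pass (limma adjusted p 0.058 to 0.19). The related Ctag2l2 differed by 0.44 (limma adjusted p = 0.48) and had a mean near the background, with a log2 ratio of 0.20.

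**Figure D2:**
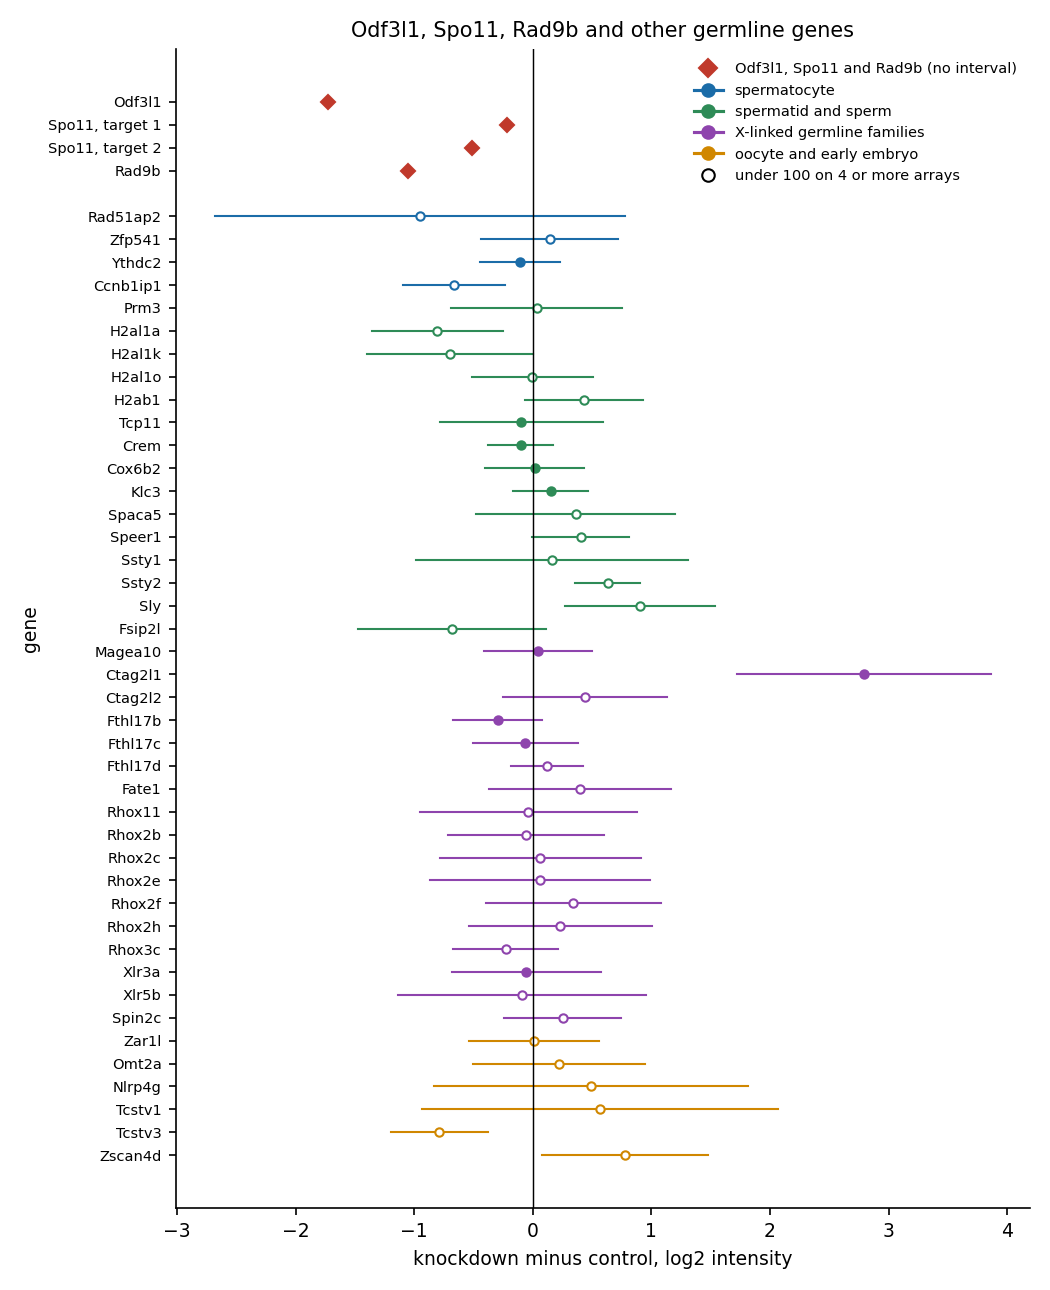
Knockdown minus control difference of log2 intensity for the 4 targets of Odf3l1, Spo11 and Rad9b (red diamonds, drawn without interval) and for 42 other germline genes taken by name (circles with 95% intervals of limma, coloured by group, open where fewer than 3 arrays reached an intensity of 100). Odf3l1 at -1.72 and Ctag2l1 at 2.79 lie farthest from 0, and the open circles lie between -0.95 and 0.90.

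In the remaining lists taken by name no gene passed either. The 8 axoneme and cilium genes had a median difference of -0.17 and a range of -0.61 to 0.55. The groups did not overlap for 1 gene in each direction, beside 13.0% of all targets that were lower and 12.1% that were higher in this way. Wdr78, an axonemal dynein subunit, differed by -0.42 (SE 0.15, limma adjusted p = 0.24). Ccdc113, a ciliary protein named after its values were seen, differed by 0.55 (SE 0.24, limma adjusted p = 0.31). The 6 DNA repair genes taken by name, Palb2 again among them, had a median difference of -0.14 and a range of -0.35 to 0.14. Among them Xrcc6, the Ku70 end-binding protein, differed by -0.17 (limma adjusted p = 0.55). Odf3l1, Spo11 and Rad9b left out, the lists held 62 measured genes, the hepatocyte and macrophage ones included, and limma passed 0 of them. At an unadjusted limma p under 0.05, 4 of the 62 were higher and 5 lower, beside 3592 higher and 3902 lower of all 44170 targets.

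Genes beside Odf3l1 and Rad9b on the chromosome were looked up to see whether a measured neighbour differed too. Of the 20 nearest protein-coding genes of each, 10 on each side, 1 was measured for Odf3l1, 1 for Rad9b and 0 for Spo11. Sin3a, a corepressor scaffold 6 genes from Odf3l1, had log2 levels of 10.93, 10.74 and 10.53 in control and 10.65, 10.44 and 10.93 in knockdown cells, a difference of -0.07 (SE 0.18, 95% interval -0.49 to 0.36, limma adjusted p = 0.88). Atp2a2, the SERCA2 calcium pump 6 genes from Rad9b, had 10.55, 10.92 and 10.83 in control and 10.39, 10.67 and 10.81 in knockdown cells, a difference of -0.14 (SE 0.17, 95% interval -0.54 to 0.26, limma adjusted p = 0.70). The groups overlapped in both neighbours, and neither passed the test.

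Likeness was measured as Pearson's r of log2 intensity over the 6 arrays, among 711 named targets that reached an intensity of 100 on at least 3 arrays. The points share arrays and normalization, and a difference between the groups alone gives a high r, so the values are a description. Odf3l1 was most like Ublcp1 (r = 0.99), a phosphatase of the proteasome, then Ccdc82 (0.99), Usp3 (0.98), a deubiquitinase, Lrrfip1 (0.98) and Ccdc6 (0.97). Rad9b was most like Ccdc6 (0.99), Ublcp1 (0.98), Usp3 (0.98), Card9 (0.97), an adaptor of myeloid pattern receptors, and a second target of Lrrfip1 (0.97). The differences of these genes were smaller than those of Odf3l1 and Rad9b: Ublcp1 differed by -0.37, Ccdc82 by -0.59, Usp3 by -0.31, Ccdc6 by -0.22 and Card9 by -0.32. The Lrrfip1 target like Odf3l1 differed by -0.53 and the one like Rad9b by -0.56. An r above 0.9 was reached by 52 of the 711 targets (7.31%) with Odf3l1 and by 40 (5.63%) with Rad9b.

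Fewer targets resembled Spo11, but Odf3l1 and Rad9b were chosen for a difference between the groups, which alone gives a high r. The contrast is therefore not read as a trait of Spo11. An r above 0.9 was reached by 9 of 711 (1.27%) with its first target and by 10 (1.41%) with its second. The first target was most like Armcx5 (r = 0.95), Cep83 (0.95), a centriole protein, Myadm (0.95), Zfp131 (0.93) and Taf9b (0.93). The second was most like Xrcc6 (0.98), Rnf146 (0.97), Pwwp2b (0.96), Rnf34 (0.95) and Ssb (0.95), the La RNA-binding protein. The 2 Spo11 targets, which read 1 gene on the same arrays, had an r of 0.86 with each other, and no gene was among the 5 likest of both.

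**Figure D3:**
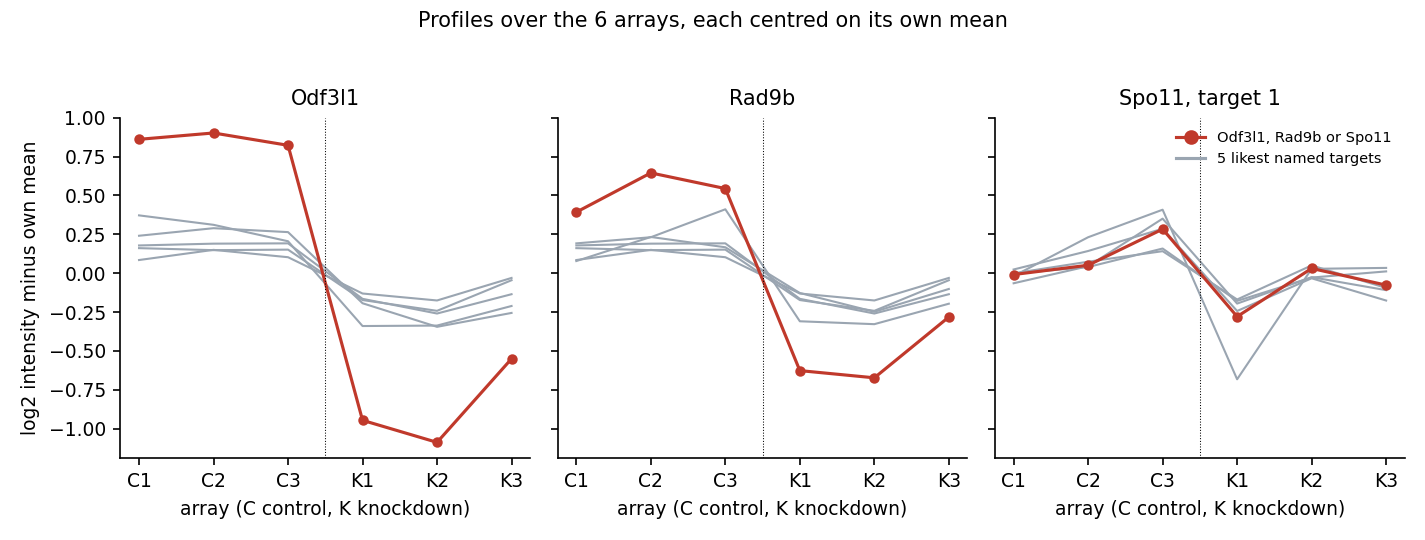
Log2 intensity of Odf3l1, Rad9b and the first Spo11 target (red) and of the 5 named targets most like each (grey) on the 6 arrays, each centred on its own mean. The lines join arrays only to guide the eye, and the grey profiles of Odf3l1 and Rad9b follow the group step with a smaller height, while the Spo11 profile peaks on control replicate 3.

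**Figure D4:**
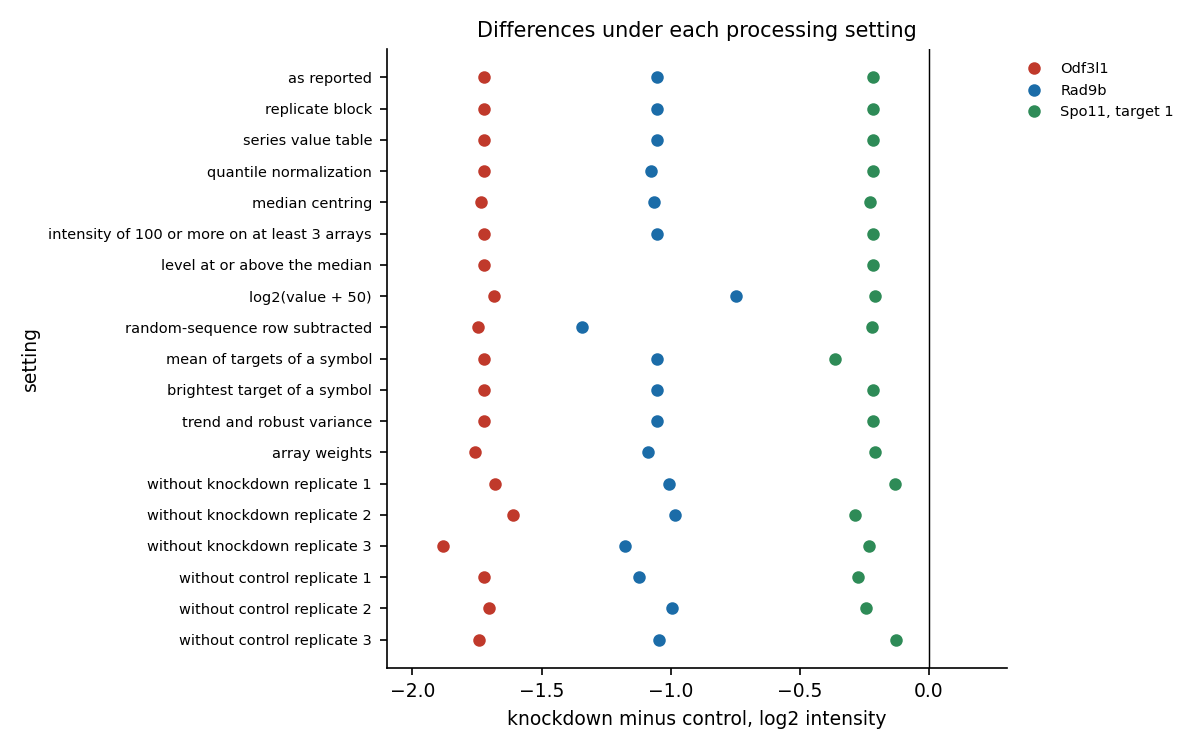
Knockdown minus control difference of log2 intensity for Odf3l1, Rad9b and the first Spo11 target (with the mean of both Spo11 targets where the setting averages them) under each processing setting. Odf3l1 lies between -1.88 and -1.61, Rad9b between -1.34 and -0.75 and Spo11 between -0.37 and -0.13, all below 0.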

How the data were processed

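The authors deposited 1 table per array with an intensity on a linear scale for each target, made with RMA per the submitters' processing notes; version, settings and genome build are not given in the sources used here. Per the file headers each target also carries its number of probes (3 for 44155 of 44170 targets). RMA as commonly run equalises arrays, which removes a shift shared by all genes. Accessions without versions were matched to a RefSeq gene table (GRCm38.p6): 1267 targets (2.87%) gave 1229 symbols, 912 through a transcript, 41 through a symbol and 314 through a synonym, the last including the clone accessions of Odf3l1 and Rad9b.

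Intensities were taken to log2 and all 44170 targets were fitted with limma 3.58.1 in R 4.3.3 (lmFit, eBayes, knockdown minus control, 2-sided, no block, no filter, Benjamini-Hochberg adjusted p under 0.05), after the code was tested on simulated data. For genes with several targets the brightest entered the list counts. Promoter stretches and figures used Python 3.11.15 and matplotlib 3.10.9. Named were all targets of the 3 genes, in each list at most 4 genes that passed, or failing that the gene of lowest p, with direct partners, measured neighbours within 10 genes, and the 5 likest targets. The 3 genes and all lists were chosen with earlier results of these data known, and the lists taken by name were added after the files were seen. Alternatives were the replicate block, the series table, renormalizations, filters on dim targets, background handling, target summaries, variance models, array weights and leaving out each array.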

Additional observations from a re-analysis of the deposited data

How the results depend on the processing

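Odf3l1 kept its direction and moved by less than its spread within groups under all 18 alternatives (without one array -1.88 to -1.61), and the first Spo11 target, or the mean of both where targets were averaged, stayed below 0 and outside the threshold under all 18 (without one array -0.29 to -0.13, limma adjusted p 0.29 to 0.74 over all). The second Spo11 target did so under all 16 it entered by itself (without one array -0.70 to -0.33, limma adjusted p 0.16 to 0.56 over all). Rad9b stayed below 0 under all 17 it entered (without one array -1.18 to -0.98). In the series table and with the intensity minimum of 100, its 3 control arrays alone let Rad9b in. Those fits are therefore not read as support for the direction of Rad9b. The Rad9b difference was -0.75 with log2(value + 50) and -1.34 with the random-sequence row subtracted, which compress and stretch dim values by construction. Rad9b was left out by the filter at the median level. Some alternatives cannot change the difference of a gene with 1 target: the replicate block, series table, filters, target summaries and variance model. Where they kept the gene, they returned the same -1.72 for Odf3l1 and -1.06 for Rad9b by construction. Among these settings, only averaging its targets could move the Spo11 difference. Random-sequence probes at 23.1 to 24.5 limit what dim targets can show.

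The background counts of 223 higher and 313 lower targets were less steady. They were 739 and 1069 both in the series table and with an intensity of 100 or more on 3 arrays, which hold the same 27526 targets, 585 and 833 with log2(value + 50), 948 and 1245 for targets no dimmer than the median, 1094 and 1403 with trend and robust variance, and 0 to 117 higher and 1 to 109 lower without one array (0 and 1 when knockdown replicate 1 was dropped, 117 and 109 when control replicate 3 was). A replicate block left 0 calls in either direction by limma, where 3202 higher and 3340 lower targets had an unadjusted p below 0.05. Same-numbered arrays had deviations from their group means that correlated at -0.03, -0.01 and 0.00, so no pairing by number was seen. The filters and the dropped arrays test fewer targets or arrays by construction. The replicate block fits more terms to the same arrays, which leaves less of the data to estimate the spread from. The cause was not tested for the rest.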
